A study of Mus musculus with 18 samples.

Results

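The 9 genes described here, Nfkbia, Nfkbib, Nfkbie, Nfkbiz, Nfkbid, Bcl3, Tnfaip3, Tnip1 and Birc3, were listed as NF-kB-induced regulators of NF-kB signalling. Whether NF-kB induces each of them was not tested here. They were chosen by name, with no measured value in the rule, though with earlier results of these data known. All 9 were among the 14002 genes with reads in any library. The libraries came from RAW264.7, a mouse macrophage-like cell line, which received 200 µM 4-thiouridine (4sU), a uridine analogue taken up into RNA as it is made. The labels name no inflammatory stimulus. Each of 9 lysates gave a cytoplasmic input library, fragmented by alkali, and a library of ribosome footprints, the stretches of mRNA that ribosomes protected from RNase I. Experiment 1 held an untreated lysate (0 min) and lysates after 20, 40, 60, 90 and 120 min of 4sU, and experiment 2 held lysates after 20, 30 and 40 min. Every time but 20 and 40 min therefore rests on 1 lysate per material, and those have 2. The labels do not say whether lysates came from separate cultures, so the p-values reflect the spread between these lysates alone, which may be technical.

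NF-kB is held in the cytoplasm by IkB proteins, which bind the Rel dimers and mask their nuclear import signals. Signals from Toll-like and cytokine receptors activate the IKK kinases, IkB is phosphorylated and destroyed, and NF-kB enters the nucleus, where its first targets include the genes of its own inhibitors. Nfkbia (IkB alpha) is the classical early feedback gene, and Nfkbib (IkB beta) and Nfkbie (IkB epsilon) encode the other cytoplasmic IkBs. Nfkbiz (IkB zeta), Nfkbid (IkB NS) and Bcl3 are nuclear IkB proteins, which bind the p50 and p52 subunits at promoters and can raise or lower transcription. Tnfaip3 (A20) is a ubiquitin-editing enzyme, Tnip1 (ABIN-1) its ubiquitin-binding partner, and Birc3 (cIAP2) a ubiquitin ligase of the TNF receptor complex. mRNAs of such fast feedback genes are known for short lives, to which AU-rich elements in the 3′ UTR can contribute.

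Sequence features of the genes are shown first, and their relation to the labelling described afterwards was not tested. Promoter windows from 250 bases before to 50 after the start were taken from RefSeq (GRCm38.p6) and searched on both strands for the 10-base NF-kB (kappa B) consensus. Of the 9 members, 8 had a window in the table, and 6 of these 8 held a match. The motif was found in 4.51% of all 32851 windows, in 6.24% of the 7759 genes tested below that had a window, and in 13 of 30 listed NF-kB response genes. Capitals mark the matches in the stretches below, each given on the gene's strand.
Nfkbia, chr12:55492652-55492691, minus strand: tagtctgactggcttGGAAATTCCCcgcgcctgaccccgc
Nfkbie, chr17:45555579-45555618, plus strand: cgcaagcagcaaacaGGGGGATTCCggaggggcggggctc
Nfkbid, chr7:30422165-30422249, plus strand: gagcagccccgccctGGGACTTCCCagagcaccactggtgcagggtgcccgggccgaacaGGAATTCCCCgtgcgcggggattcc
Bcl3, chr7:19822729-19822768, minus strand: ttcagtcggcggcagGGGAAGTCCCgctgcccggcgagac
Tnfaip3, upstream match, chr10:19015511-19015550, minus strand: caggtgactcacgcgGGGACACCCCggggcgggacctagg
Tnfaip3, match at the start, chr10:19015398-19015437, minus strand: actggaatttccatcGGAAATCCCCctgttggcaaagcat
Tnip1, chr11:54962972-54963013, minus strand: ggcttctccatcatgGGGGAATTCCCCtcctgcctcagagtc
In Tnip1 the capitals cover 3 overlapping matches. The windows of Nfkbib and Birc3 held none, which says only that these letters are not in those windows.

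The pentamer ATTTA, the core of AU-rich elements, was counted on the mRNA strand of each 3′ UTR (GENCODE M21 transcripts). Tnfaip3 held 5, Nfkbiz 4, Birc3 4, Nfkbia 2 and Nfkbid 1, while Nfkbib, Nfkbie, Tnip1 and Bcl3 held 0. Over the 6715 genes with a 3′ UTR in the input labelling fit below, the median was 1 and 69.2% held at least 1. Per kilobase of 3′ UTR the count was 7.09 for Birc3, 3.91 for Nfkbia, 2.95 for Nfkbiz, 2.75 for Tnfaip3 and 1.79 for Nfkbid. The median over the 6715 genes was 1.41. Nfkbiz and Tnfaip3 were picked for display by their labelling in input below, the highest among the members tested, and not by pentamer content. A 30-base window with 2 pentamers, in capitals, is shown for each.
Nfkbiz: cctcttagATTTAtgtaATTTAcctaagtt
Tnfaip3: ttATTTAttatgaacttccaagttATTTAa

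Gene positions are given on GRCm38, the assembly of mm10. The cytoplasmic IkB genes lie at chr12:55489410-55492647 (Nfkbia), chr7:28758251-28767512 (Nfkbib) and chr17:45555703-45563169 (Nfkbie). The nuclear IkB genes lie at chr16:55811375-55838899 (Nfkbiz), chr7:30421732-30428746 (Nfkbid) and chr7:19808462-19822770 (Bcl3). Tnfaip3 lies at chr10:19000910-19015657, Tnip1 at chr11:54910785-54962917 and Birc3 at chr9:7848699-7873186. Nfkbib overlaps Sirt2 and Ccer2 on the opposite strand, Tnip1 a pseudogene and Bcl3 a pair of antisense RNAs. No source used here states whether counting was by strand, so reads in those overlaps cannot be assigned with certainty.

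Depth differed between the experiments: in experiment 1 it ran from 6230562 to 7933796 reads per input library and from 11771175 to 23327760 per footprint library. In experiment 2 it ran from 26359243 to 48139330 and from 29065324 to 87536081. All 18 macrophage markers examined had reads in every library, with summed levels of 7839 to 10515 normalised CPM (reads scaled to a common library size after TMM correction) in input and 12939 to 17595 in footprints. Of 31 markers of other cell types, 12 appeared at all, with summed levels of 0.281 to 1.87 CPM in input and 1.05 to 3.64 in footprints. Reads with 1 or more T-to-C conversions, which mark 4sU sites, were called converted. The converted share of whole libraries went from 0.289% at 0 min to 8.07% at 120 min in input, and from 0.298% to 5.54% in footprints. Fewer cells with a given mRNA and less of it per cell cannot be told apart in bulk RNA.

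Nfkbia was by far the most abundant member, whether the level was read in mRNA or on ribosomes. Per kilobase of coding sequence its input level averaged 109 CPM ± 15.4 (SD, n = 9), against 25.9 ± 5.21 for Birc3, the next in order. Tnip1 followed with 18.99 ± 5.41, Nfkbib with 12.4 ± 3.33 and Nfkbid with 11.8 ± 1.74 CPM per kilobase. Nfkbie at 3.56 ± 0.424, Tnfaip3 at 3.06 ± 0.860, Nfkbiz at 2.30 ± 0.680 and Bcl3 at 2.15 ± 0.335 formed a low group. In this order only the steps from Nfkbia to Birc3 and from Nfkbid to Nfkbie separated all 9 libraries of one gene from those of the next, and every other pair of neighbours overlapped. Compared within each library, Tnip1 was above Nfkbib in all 9, Birc3 above Tnip1 in 8 and Nfkbib above Nfkbid in 5. In the low group Nfkbie was above Tnfaip3 in 7, Tnfaip3 above Nfkbiz in 8 and Nfkbiz above Bcl3 in 4. Among the 9653 genes with a coding length, Nfkbia stood at the 85.3th percentile and Bcl3 at the 8.90th. In footprints Nfkbib stood ahead of Tnip1 and Birc3 with 27.2 ± 2.45 CPM per kilobase, Birc3 behind Tnip1 with 14.4 ± 4.69, and Tnfaip3 ahead of Nfkbie. The lowest members rest on few reads, since Bcl3 had 15 to 158 reads per library, Nfkbie 23 to 277 and Nfkbiz 20 to 313.

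The first comparison asked how fast newly made mRNA replaced old mRNA of each member. The members ranged from genes whose reads were mostly converted within 2 h to genes near the typical gene. In the input of experiment 1 the converted share of Nfkbia reads was 0.244% at 0 min (95% Wilson interval 0.0671 to 0.887), 5.62% at 20 min, 25.3% at 40 min, 44.3% at 60 min, 53.2% at 90 min and 60.2% at 120 min (56.5 to 63.8). Its footprints followed closely, with 0.293% (0.159 to 0.539), 6.34%, 28.0%, 42.2%, 48.2% and 51.2% (49.4 to 53.0). The share was higher at each later time in both materials, and all intervals cover counting error only. Nfkbib stayed low, with 0 of 84 input reads converted at 0 min, which allows a share of up to 3.57%, and 10.6% at 120 min. Nfkbie, counted on 23 input reads at 120 min, reached 26.1% there.

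Among the nuclear IkBs, Nfkbiz and Nfkbid had high shares like Nfkbia, while Bcl3 lay lower. For Nfkbid the input shares of experiment 1 were 0.781%, 8.21%, 25.2%, 53.8%, 53.4% and 64.9% in order of time, and the footprint shares 0.930%, 7.91%, 26.6%, 42.2%, 50.2% and 57.8%. For Nfkbiz the input shares were 0% of 32 reads (allowing up to 9.38%), 5.00%, 41.9%, 52.8%, 54.5% and 64.9%, and its footprints ended at 62.5%. Bcl3 reached 53.3% in input and 26.7% in footprints at 120 min, each on 15 reads, so those shares are loosely known. Pooled over the 60, 90 and 120 min lysates, Bcl3 had 29.7% converted input reads (19.9 to 41.8) and 18.7% in footprints (11.5 to 28.9).

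Of the ubiquitin regulators, Tnfaip3 had high shares like Nfkbia, Birc3 intermediate and Tnip1 low ones. Tnfaip3 input shares in experiment 1 were 0% of 43 reads (allowing up to 6.98%), 12.9%, 31.1%, 52.6%, 52.4% and 72.7%, and those of its footprints 0.546%, 6.11%, 37.7%, 48.6%, 44.4% and 56.3%. Birc3 input shares were 0% of 404 reads (allowing up to 0.743%), 1.11%, 6.20%, 13.9%, 29.5% and 34.4%, and those of its footprints 0.633%, 0.576%, 4.20%, 6.55%, 28.4% and 45.0%. Tnip1 reads were converted in 26.4% of input and 16.4% of footprints at 120 min, and in 7.94% and 12.5% at 90 min. Pooled over 60 to 120 min, the input shares of all 9 members in falling order were 58.3% for Tnfaip3, 57.1% for Nfkbiz, 56.2% for Nfkbid, 51.8% for Nfkbia, 29.7% for Bcl3, 23.4% for Birc3, 18.3% for Nfkbie, 10.6% for Tnip1 and 6.55% for Nfkbib. The intervals of the 4 highest lie wholly above those of the other 5 (lowest bound 47.9%, highest bound 41.8%).

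**Figure D1:**
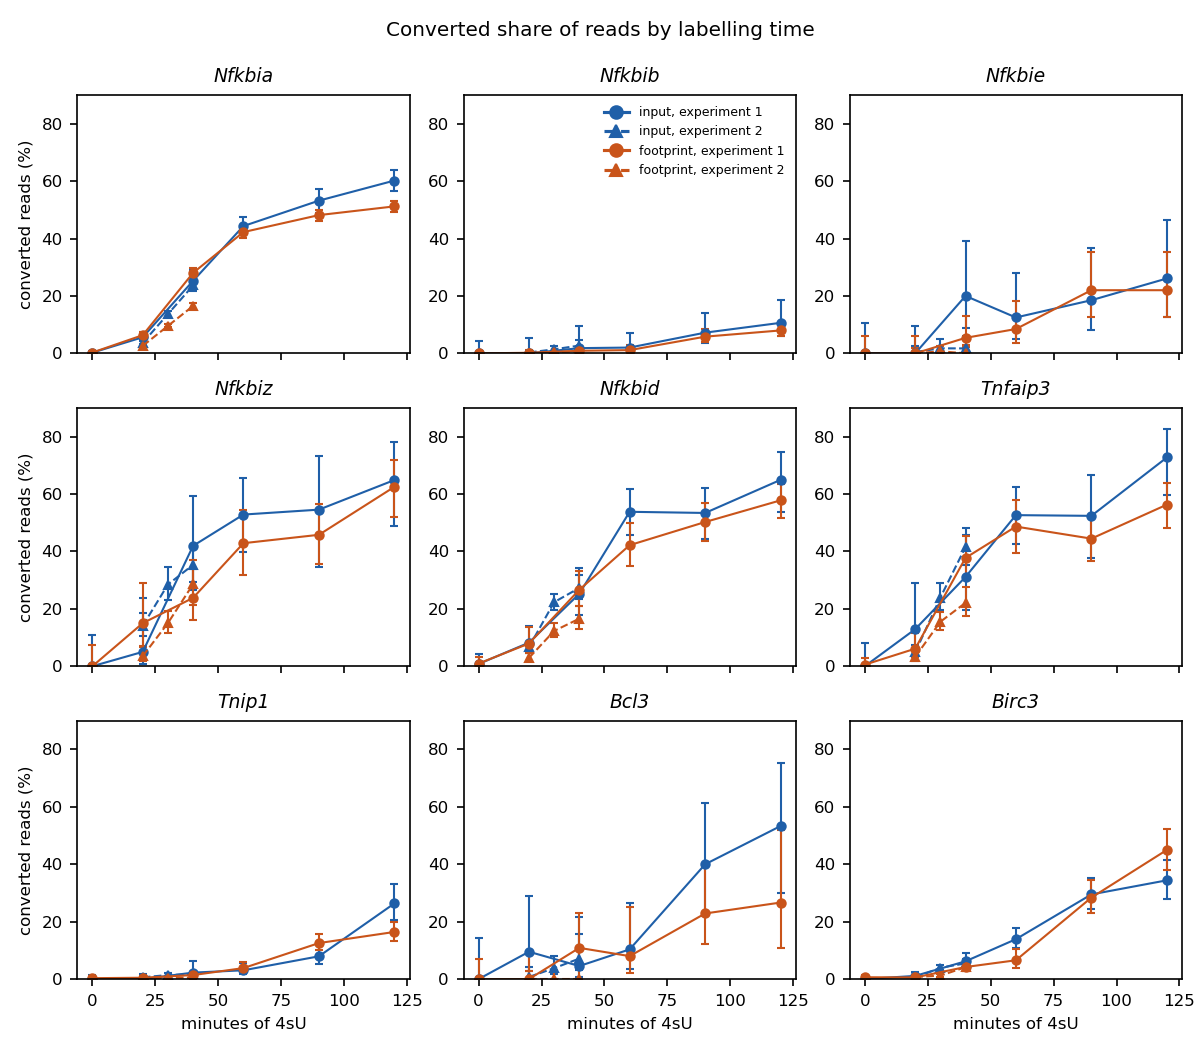
Converted reads of each gene in percent (vertical axis, bars: 95% Wilson intervals) against minutes of 4sU, for input (blue) and footprints (orange) of experiment 1 (circles) and experiment 2 (triangles). Nfkbia, Nfkbiz, Nfkbid and Tnfaip3 pass 40% by 60 min in both materials, while Nfkbib ends at 10.6% in input and 7.99% in footprints.

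At 20 and 40 min both experiments can be set side by side. Nfkbia input reads were converted in 4.65% ± 1.38 (SD, n = 2) at 20 min. In experiment 2 the 40 min input shares were 23.6% for Nfkbia, 27.3% for Nfkbid, 35.3% for Nfkbiz and 41.6% for Tnfaip3, against 2.71% for Nfkbib, 1.67% for Tnip1 and 5.47% for Birc3. The division of the members into fast and slow was thus seen in the deeper experiment as well. Footprints of experiment 2 lagged behind, with 16.5% for Nfkbia, 16.6% for Nfkbid, 28.6% for Nfkbiz and 22.1% for Tnfaip3 at 40 min.

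To pool the labelling times, the log2 odds of conversion of each gene were set against the median gene of the same library and tested against 0 with limma over 8 labelled libraries. In input Nfkbiz stood 4.51 above the median (SE 0.197, adjusted p = 4.85e-09), Tnfaip3 4.41 (SE 0.201, adjusted p = 6.05e-09), Nfkbid 4.14 (SE 0.160, adjusted p = 3.93e-09) and Nfkbia 3.70 (SE 0.194, adjusted p = 1.66e-08). These values lay between the 99.2nd and 99.9th percentile of 7045 genes, and none of the 4 genes fell below the 96.0th percentile in any library. Birc3 stood 1.55 above the median (SE 0.274, adjusted p = 0.000305), from -0.18 at 20 min in experiment 2 to 2.80 at 90 min. Tnip1, at 0.09 (SE 0.276, adjusted p = 0.784), did not differ from the typical gene beyond its spread. Nfkbib, Nfkbie and Bcl3 had too few reads or converted reads to enter, so 6 of 9 members were tested. A filter on converted reads favours labelled genes among rare mRNAs. Nfkbiz and Tnfaip3 averaged only 117 and 149 reads per labelled input library, and 129 and 244 per labelled footprint library. They may have entered only because they were highly labelled, so their percentiles and p-values are not independent of the filter. The call was made for 35.2% of all genes upward and 35.2% downward.

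In footprints the same 5 members stood above the median, by 4.85 for Nfkbiz (SE 0.234), 4.69 for Tnfaip3 (SE 0.255), 4.52 for Nfkbid (SE 0.193), 4.34 for Nfkbia (SE 0.208) and 2.03 for Birc3 (SE 0.273). Their adjusted p from limma ranged from 3.02e-08 to 8.82e-05, and 32.5% of 6778 genes were called upward and 32.6% downward. Tnip1 at 0.52 (adjusted p = 0.0654, and 0.0462 or 0.0280 without the 20 or 40 min lysate of experiment 2) and Nfkbib at -0.50 (adjusted p = 0.218) were not called, and Nfkbie and Bcl3 did not enter. Tnip1 was also called with a pseudocount of 2 (adjusted p = 0.0465), with a mean of at least 200 reads (adjusted p = 0.0469) and in experiment 1 alone (0.82, adjusted p = 0.0167). Reads of Tnip1 held 4.34 T positions on average in input and those of Birc3 7.07, so a converted read was less easily scored in Tnip1. Scored as conversions per T position, Tnip1 in footprints reached 1.02 (adjusted p = 0.00172) and in input 0.59 (adjusted p = 0.0604), while the other calls held.

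**Figure D2:**
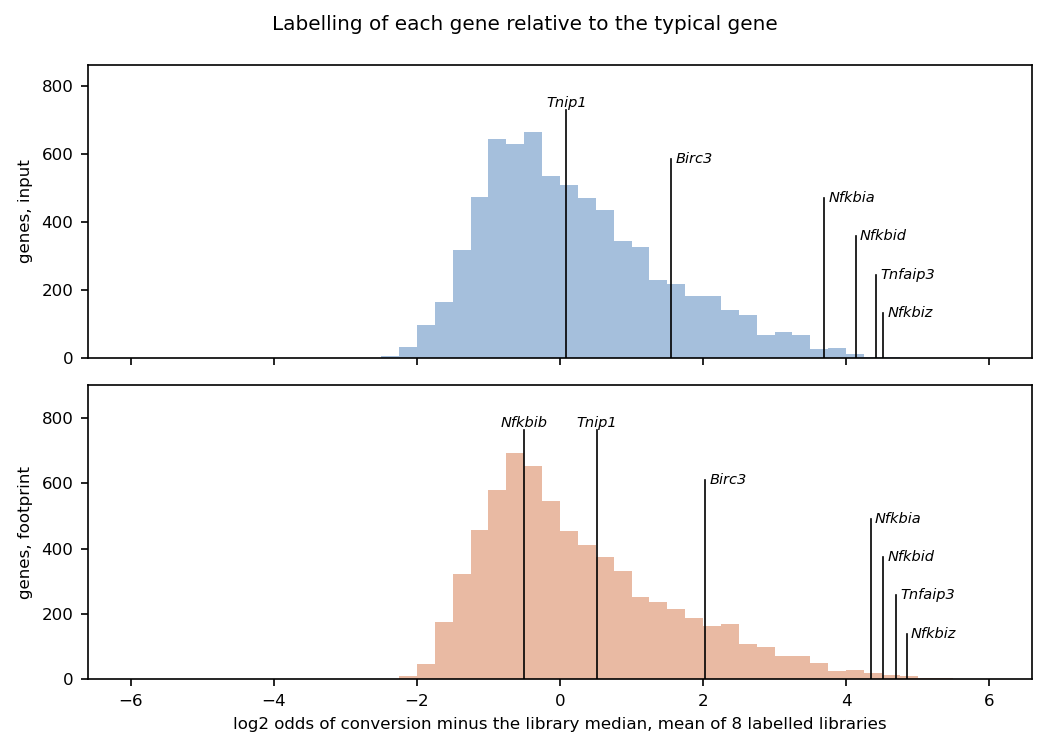
Number of genes (vertical axis) by log2 odds of conversion relative to the library median (horizontal axis, mean of 8 labelled libraries), for input above and footprints below, with the members that entered the fit marked. Nfkbia, Nfkbid, Tnfaip3 and Nfkbiz sit at the right end, between 3.70 and 4.51 in input, and Tnip1 sits near 0.

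None of the 4 fast genes had a called change of total input level with time (below), while their unconverted levels at 120 min lay under those at 0 min. Nfkbia input stood at 115 CPM at 0 min and 114 at 120 min, yet its unconverted level at 120 min was 39.4% of its total level at 0 min. For Nfkbid this value was 24.3%, for Tnfaip3 40.3% and for Nfkbiz 46.9%. Birc3 differed, because its total fell as well, from 56.8 to 30.2 CPM in input, and its unconverted level at 120 min was 34.9% of the total at 0 min. Lower unconverted input levels were not limited to these genes, with 35.1% for Bcl3, 55.2% for Tnip1 and 61.3% for Nfkbie, while Nfkbib stood at 115%. In footprints the unconverted level at 120 min was 61.4% of the total at 0 min for Nfkbia, 54.8% for Tnfaip3, 78.4% for Nfkbid and 107% for Nfkbiz. Each of these figures compares 1 library with 1 other and has no test, and new RNA without a scored conversion counts as unconverted.

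The next comparison asked how densely each mRNA was occupied by ribosomes, through footprint reads against input reads in edgeR with a term for labelling time. Relative to its mRNA, Nfkbib was the most and Birc3 the least represented member in footprints. The fitted log2 ratio of Nfkbib was 1.11 (SE 0.143, adjusted p = 4.47e-06), with lysate values from 0.64 to 1.84 (median 1.13), and that of Nfkbia 0.77 (SE 0.115, adjusted p = 2.06e-05), with values from 0.38 to 1.19 (median 0.81). Both were higher in footprints in 9 of 9 lysates. Nfkbie, at -0.14 (adjusted p = 0.346), was below 0 in 6 of 9 lysates and not called.

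Of the nuclear IkBs, Nfkbid was lower in footprints by a log2 value of -0.58 (SE 0.161, adjusted p = 0.00424) and Bcl3 by -0.52 (SE 0.156, adjusted p = 0.00701), each in 8 of 9 lysates. Bcl3 ranged from -1.29 to 0.02, and its call was lost in experiment 2 alone (adjusted p = 0.107). Nfkbiz, at -0.34 (SE 0.196, adjusted p = 0.131), was lower in 8 of 9 lysates and called only without the 90 min lysate (-0.45, adjusted p = 0.0403) or in experiment 2 alone (-0.57, adjusted p = 0.00322). Among the ubiquitin regulators Birc3 was lower in 9 of 9 lysates, with -0.89 (SE 0.0976, adjusted p = 7.48e-07) and a range from -1.35 to -0.61. Tnfaip3, at 0.24 (SE 0.117, adjusted p = 0.0734), was above 0 in 7 of 9 lysates. It passed the threshold with lysate as a replicate block (0.25, adjusted p = 0.0416), with DESeq2 size factors (0.30, adjusted p = 0.0323), and without the 60 min lysate or the 30 min lysate (adjusted p = 0.0399 and 0.0389). It also passed with DESeq2's Wald test (adjusted p = 0.0284), with experiment as a replicate block (adjusted p = 0.0357) and in experiment 1 alone (adjusted p = 0.0449). Tnip1, at 0.09 (adjusted p = 0.617), was called only in experiment 1 alone (0.34, adjusted p = 0.0248). In all, 2 of 9 members were called higher and 3 lower, where 35.8% of 10110 genes were called higher and 40.4% lower. The median over members was -0.14, and that over all genes -0.04.

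**Figure D3:**
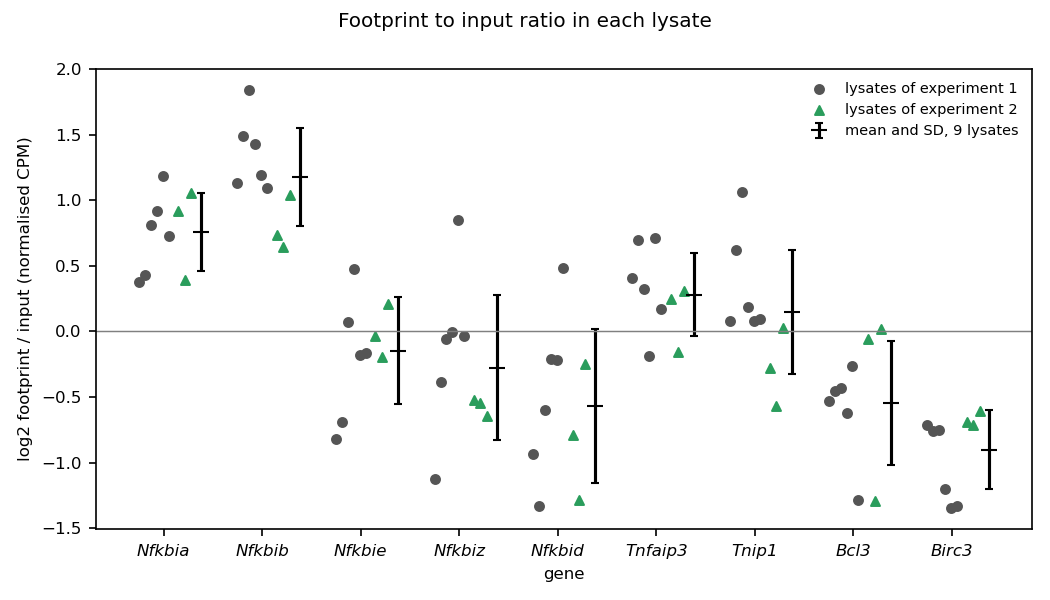
Log2 ratio of footprint to input normalised CPM (vertical axis) for each gene, with 1 point per lysate, circles for experiment 1 in order of time and triangles for experiment 2, and the mean and SD of 9 lysates in black. All Nfkbia and Nfkbib points lie above 0 and all Birc3 points below, while Tnip1 ranges from -0.57 to 1.06.

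Between the experiments this ratio differed for 2 members, by an edgeR term for material and experiment at 20 and 40 min, the times both share, added once results were known. Nfkbib averaged 1.36 ± 0.29 (SD, n = 6) over all lysates of experiment 1 and 0.81 ± 0.21 (SD, n = 3) over those of experiment 2. At the shared times the difference, experiment 2 minus experiment 1, was -0.87 (SE 0.195, adjusted p = 0.0142). Tnip1 averaged 0.35 ± 0.40 (SD, n = 6) against -0.27 ± 0.30 (SD, n = 3), and its difference at the shared times was -1.02 (SE 0.225, adjusted p = 0.0134). Of 10308 genes 8.22% differed upward and 14.5% downward. In both genes the input levels lay further apart than the footprint levels. Nfkbib input at 20 and 40 min stood at 9.23 and 7.84 CPM in experiment 1 and 18.4 and 15.7 in experiment 2, and its footprints at 25.9 and 28.1 against 30.6 and 32.3. Tnip1 input stood at 28.9 and 18.95 CPM in experiment 1 and 50.0 and 47.1 in experiment 2, with footprints at 44.5 and 39.6 against 41.1 and 48.0. Depth differed between the experiments as given above, and its part in these differences was not tested.

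Whether levels changed over the labelling was asked with hours of 4sU as a number, separately in input and footprints. Birc3 fell in both materials, and Nfkbiz and Nfkbid rose in footprints. Birc3 input levels in experiment 1 were 56.8, 61.1, 50.6, 46.6, 38.1 and 30.2 CPM from 0 to 120 min, and 50.2, 46.2 and 41.4 CPM at 20, 30 and 40 min in experiment 2. Its footprints stood at 34.7, 36.0, 30.1, 20.3, 15.0 and 12.0 CPM in experiment 1 and 31.1, 28.2 and 27.2 in experiment 2. From 20 min onward each later lysate of an experiment was lower than the one before it in both materials. The slope of Birc3 was -0.46 per hour on the log2 scale in input (SE 0.0801, edgeR adjusted p = 0.0130) and -0.88 in footprints (SE 0.0891, adjusted p = 0.000515). The input call was lost without the 90 min lysate (adjusted p = 0.0577) or the 120 min lysate (adjusted p = 0.223), while the footprint call held in every leave-out, with an adjusted p of at most 0.0269.

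Nfkbid footprints in experiment 1 stood at 9.43, 7.22, 10.1, 14.7, 13.9 and 17.5 CPM in order of time, and its input at 18.01, 18.2, 15.2, 17.1, 16.2 and 12.5 CPM. In experiment 2 its footprints stood at 11.5, 8.02 and 11.9 CPM and its input at 19.8, 19.5 and 14.1. The footprint slope was 0.50 per hour (SE 0.131, edgeR adjusted p = 0.0196) and was lost without the 120 min lysate (adjusted p = 0.248), and the input slope was -0.27 (adjusted p = 0.149). Nfkbiz footprints stood at 2.06, 2.08, 4.25, 6.21, 5.43 and 5.86 CPM in experiment 1 and 3.97, 3.76 and 4.58 in experiment 2. Its slope of 0.65 per hour (SE 0.198, adjusted p = 0.0351) failed without the lysate of 0, 20, 90 or 120 min of experiment 1 or of 30 min of experiment 2 (adjusted p = 0.0503 to 0.1298), and its input slope was 0.03 (adjusted p = 0.946). Nfkbiz thus rests on single lysates at low counts.

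Nfkbia had no called slope, with -0.11 per hour in input (adjusted p = 0.583) and 0.10 in footprints (adjusted p = 0.613). Its input ranged from 75.0 to 115 CPM and its footprints from 142 to 222, and the ranges did not overlap. The other 5 members had no called slope in either material, except Tnip1 footprints in experiment 1 alone (-0.26, adjusted p = 0.0277). In input 0.475% of 9269 genes were called higher with time and 6.51% lower, against 0 and 1 of 9 members. In footprints 7.13% of 9664 genes were called higher and 14.2% lower, against 2 and 1 of 9 members.

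**Figure D4:**
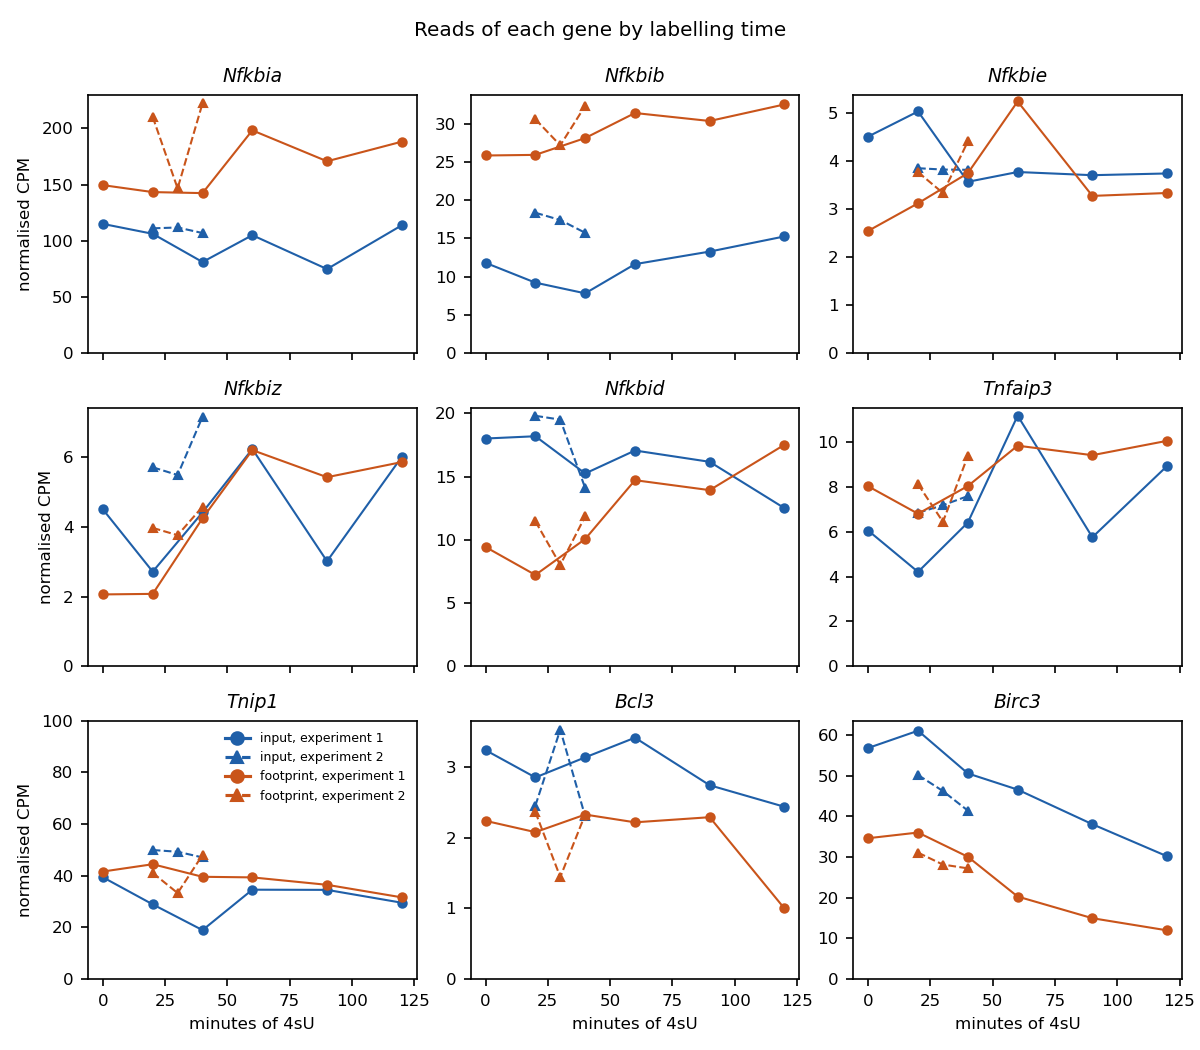
Normalised CPM of each gene (vertical axis, starting at 0) against minutes of 4sU, for input (blue) and footprints (orange) of experiment 1 (circles, solid lines) and experiment 2 (triangles, dashed lines), with 1 library per point. Birc3 goes down in both materials, to 30.2 in input and 12.0 in footprints at 120 min, and Nfkbid footprints end at 17.5, above its input at 12.5.

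Whether the footprint to input ratio itself changed with time was tested by the product of material and hours in edgeR, and 0 of 9 members passed. This model held no term for lysate or experiment. With lysate as a replicate block 0 members and 1 gene passed, and with experiment as a replicate block 0 members and 5 genes. No gene at all passed, 0% higher and 0% lower of 10110, while at an unadjusted p under 0.05 there were 134 higher and 107 lower genes, and DESeq2 called 9. The members with the smallest p were Nfkbid, with 0.78 per hour (SE 0.178, unadjusted p = 0.000322, adjusted p = 0.362), and Birc3, with -0.42 (SE 0.124, unadjusted p = 0.00326, adjusted p = 0.884). In experiment 1 the log2 ratio of Nfkbid was -0.93 at 0 min, -1.33 at 20 min, -0.60 at 40 min, -0.21 at 60 min, -0.22 at 90 min and 0.49 at 120 min. That of Birc3 was -0.71, -0.76, -0.75, -1.20, -1.35 and -1.33 in the same order. The different slopes of Birc3, Nfkbid and Nfkbiz in input and footprints are therefore not shown to differ.

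**Figure D5:**
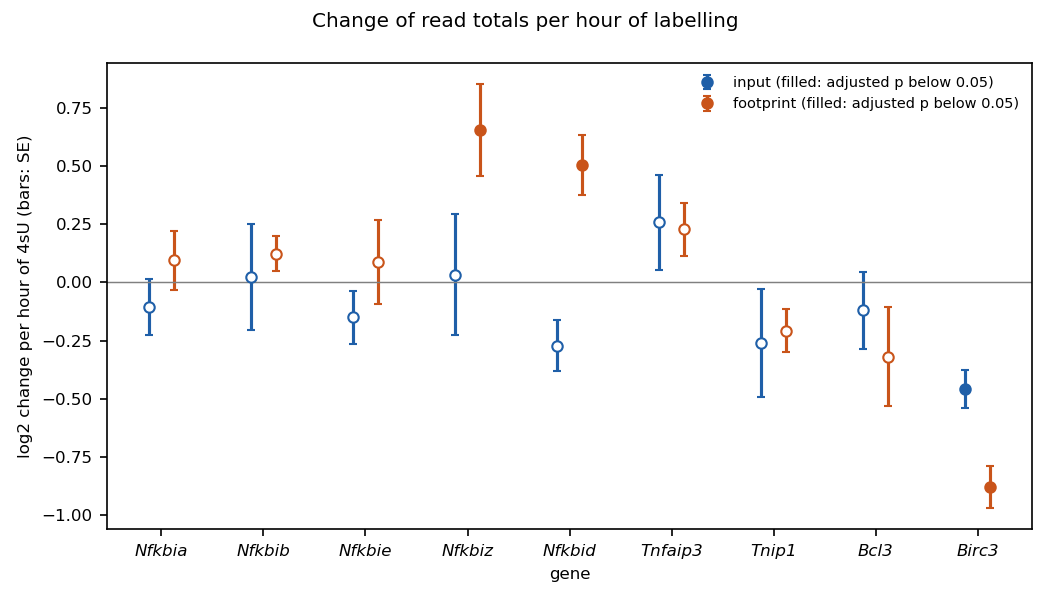
Log2 change of normalised read totals per hour of 4sU (vertical axis, bars: SE) for each gene in input (blue) and footprints (orange), with filled circles where the adjusted p was below 0.05. Filled points are Birc3 in both materials, at -0.46 and -0.88, and Nfkbiz and Nfkbid in footprints, at 0.65 and 0.50.

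The question set by the series, how ribosomes occupy new mRNA, was taken up by comparing the odds of conversion between footprints and input of the labelled lysates. A negative log2 odds ratio means that converted reads were scarcer in footprints than in input. All 9 members had negative values, and 3 were called: Bcl3 at -1.32 (SE 0.537, edgeR adjusted p = 0.0269), Nfkbib at -1.11 (SE 0.423, adjusted p = 0.0188) and Nfkbiz at -0.77 (SE 0.325, adjusted p = 0.0336). Over all 8276 genes 59.4% were called lower and 0.145% higher, with a median of -0.79, so the count of 3 of 9 members lies under that share. Nfkbia had the value nearest to 0, at -0.28 (SE 0.212, adjusted p = 0.221), with lysate values from -0.65 to 0.20 and 6 of 8 below 0. Birc3 at -0.44 (adjusted p = 0.154), Tnip1 at -0.56 (adjusted p = 0.106), Nfkbid at -0.58 (adjusted p = 0.0626), Tnfaip3 at -0.60 (adjusted p = 0.0770) and Nfkbie at -0.66 (adjusted p = 0.242) were not called. The call of Bcl3 held in none of the 8 leave-outs of a labelled lysate. It was lost without the 20 min lysate of experiment 1 (adjusted p = 0.0523), and in the other 7 the gene fell under the read minimums, having 53 converted reads in all and a mean of 59.3 reads. The call of Nfkbib was lost without the 30 or 40 min lysate of experiment 2 (adjusted p = 0.0558 and 0.101). The call of Nfkbiz was lost without the 40 min lysate of experiment 1 or the 20 or 30 min lysate of experiment 2 (adjusted p = 0.0743, 0.145 and 0.0690). Calls were gained by Tnfaip3 without the 40 min lysate of experiment 1 (adjusted p = 0.0498), and by Nfkbid and Tnip1 without the 90 min lysate (adjusted p = 0.0476 and 0.0265). With limma within lysates Nfkbiz was not called (adjusted p = 0.116), while Nfkbie and Tnfaip3 were (adjusted p = 0.0125 and 0.0409). With at least 2 conversions Nfkbiz was not called (adjusted p = 0.0637) and Birc3 was (-1.36, adjusted p = 0.0228), while Nfkbib and Bcl3 had too few such reads to enter. With experiment as a replicate block Nfkbid was called (adjusted p = 0.0464). In experiment 1 alone 0 of the members were called, where 2021 of 7305 genes were. In experiment 2 alone 5 members were called, where 5209 of 6260 genes were.

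In experiment 2, where depth was greater, the 3 lysates gave Nfkbia log2 odds ratios of -0.51, -0.58 and -0.65, and in experiment 1 the 5 labelled lysates gave 0.17, 0.20, -0.12, -0.29 and -0.53. These sets overlap, and the difference was -0.46 (edgeR adjusted p = 0.197). For Tnip1 the difference between the experiments passed, at -1.48 (SE 0.514, adjusted p = 0.0225), with -1.46, -1.46 and -1.61 in experiment 2 and 1.17, -0.85, 0.30, 0.71 and -0.87 in experiment 1. The value of 1.17, at 20 min, rests on 0 of 213 converted input reads and 4 of 856 footprint reads, so it depends on the pseudocount of 0.5. That of -0.85, at 40 min, rests on 3 of 133 and 11 of 783. Over all genes 28.0% differed downward and 0.145% upward in experiment 2, with a median difference of -0.85. Bcl3 had 0 converted footprint reads of 135, 120 and 64 at 20, 30 and 40 min of experiment 2, which allows shares of up to 2.22%, 2.50% and 4.69%, beside input shares of 0.746%, 3.80% and 7.14%. Experiment 2 covers only short labelling times, so experiment and time are partly confounded.

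The rest of the pathway was described by lists drawn from general knowledge. Of the 5 NF-kB subunits, 2 were higher and 3 lower in footprints than in input, where 35.8% of all genes were higher and 40.4% lower. Relb stood at -1.15 (edgeR adjusted p = 1.65e-06) and Rela at 0.45 (adjusted p = 3.23e-05). Against the same shares, 8 of 28 IKK components and upstream adaptors were higher and 15 lower, with Traf3, an adaptor that restrains the alternative pathway, at -3.14 and Chuk, the kinase IKK alpha, at -1.56. Of 30 other brakes on NF-kB, 8 were higher and 13 lower. Of 30 tested NF-kB response genes of macrophages, 18 were higher and 4 lower, with Icam1, an adhesion molecule, at 0.66, and the list includes Relb. In labelling, 24 of the 43 listed response genes entered the input fit, whose filter on converted reads favours labelled genes among rare mRNAs. Of these 24, 18 stood above the typical gene and 2 below, with a list median of 1.38, against 35.2% of all genes each way. Tnf, at 4.77 (limma adjusted p = 3.77e-09), and Ier3, at 4.60, stood with the fastest members. Of the subunits, Rel was the most labelled, at 2.68 (adjusted p = 6.17e-07). Zc3h12a, an RNase that degrades inflammatory mRNAs, stood at 3.11. Of the 30 brakes, 28 entered the input slope fit, where 0 rose and 4 fell, against 0.475% and 6.51% of all genes. Among the 4 was Birc2, the paralogue of Birc3, at -0.79 per hour (edgeR adjusted p = 0.0127). Birc2 footprints fell by 0.97 per hour on the log2 scale (edgeR adjusted p = 0.00191).

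Genes with the most similar labelling were found by the root mean square distance of log2 odds over 16 labelled libraries among 6290 genes. Library medians were removed but not each gene's own mean, so the distance reflects the height of labelling as well as its course. A highly labelled gene thus lies far from most genes by construction. Nfkbia lay nearest to Tgif1 (distance 0.33), Nfkbid to Klf10 (0.33) and Tnfaip3 to Klf10 (0.40), where the median distances of all genes were 4.17, 4.45 and 4.69. Nfkbiz lay nearest to Dusp2 (0.54), a phosphatase gene of activated immune cells. Nfkbid was itself the third nearest gene to Tnfaip3 (0.47). Birc3 lay nearest to Nfe2l2 (0.43, median 2.17) and Tnip1 to Yy1 (0.40, median 1.41). These distances are descriptions and share library depth and T content between genes.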

How the data were processed

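The authors deposited raw read counts per gene and library, split by T positions (0 to 20) and T-to-C conversions (0 to 3) of a read. That meaning was inferred from headings and values, with 0 reads in columns of more conversions than T positions. Alignment was with Bowtie 0.12.8 against mm10, per the submitters' processing notes. No source used here names the counting program, the annotation, the region counted or the use of strand. The T content of reads tracked that of coding sequence (Spearman rho 0.931 in input over 5872 genes) more closely than that of whole transcripts (0.587), a relation across genes.

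The 9 members and all lists and tests were chosen with earlier results of these data known. All 18 libraries were used, and 0 pairs held identical values. Fits used edgeR 4.0.16 (quasi-likelihood, TMM, filterByExpr), edgeR's design for methylation counts for conversion, and limma 3.58.1 on log2 odds (pseudocount 0.5), in R 4.3.3, and were tested on simulated data. Genes entered the conversion fits with an average of 50 or more reads and 50 or more converted reads in all. Tests were two-sided, with Benjamini-Hochberg adjusted p under 0.05 over all genes as the call. Shares carry 95% Wilson intervals, and a count of 0 allows 3 counts.

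Per the labels' protocols, input is an aliquot of the lysate that was digested, so the lysate pairs the materials. Deviations from the material means correlated within lysates at 0.116 to 0.723, and 4 of 9 lysates matched their own partner best. All members were named, and of each other list a few of the 4 genes with the smallest adjusted p. Likeness used genes averaging 100 or more reads. Alternatives were DESeq2 1.42.0, its size factors, no filter, experiment or lysate as a block, single experiments, leaving out lysates, other read and conversion minimums, a pseudocount of 2, conversions per T position, subtraction of the unlabelled share, and limma within lysates.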

Additional observations from a re-analysis of the deposited data

Results flagged for a closer look

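At 20 and 40 min the ratio of footprints to input differed between the experiments for Nfkbib, by -0.87 (edgeR adjusted p = 0.0142), and for Tnip1, by -1.02 (adjusted p = 0.0134), experiment 2 minus experiment 1. The log2 odds ratio of conversion of Tnip1 differed by -1.48 (adjusted p = 0.0225). These are 3 called differences among 18 tested for the members. Over all genes, 14.5% differed downward and 8.22% upward in the ratio of footprints to input. In the odds ratio of conversion 28.0% differed downward and 0.145% upward, with a median difference of -0.85.

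One lysate stood apart from the others in the relative labelling of Nfkbib in footprints: the 20 min lysate of experiment 2 gave -3.09, where the next lowest of 8 lysates gave -1.02, a gap of 0.60 of the whole range. Of its 1747 Nfkbib footprint reads 0 were converted. Chance marks about 1 in 20 such sets, and this was 1 of 31 examined.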

How the results depend on the processing

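Nfkbia, Nfkbib and Birc3 kept their direction and call in footprints against input under all 16 alternatives (Nfkbia 0.71 to 0.83, Nfkbib 0.80 to 1.34, Birc3 -1.003 to -0.67). The labelling calls of Nfkbia, Nfkbid, Nfkbiz, Tnfaip3 and Birc3 in input held wherever they entered. With experiment 1 alone 4 members were higher in footprints than input, and Tnip1 reversed to -0.28 with experiment 2 alone. A replicate block for the lysate gave 7979 called genes between materials, against 7699, and among the members it changed only the call of Tnfaip3. Input slopes were called for 1309 genes by DESeq2 and 1540 with experiment as a replicate block, against 647, and for 0 to 838 when single lysates were left out, with 0 to 1 members falling. Footprint slopes were called for 67 to 2602 genes in leave-outs, against 2062, with 0 to 2 members rising. Without a filter 1 member rose in footprints, and in experiment 1 alone 2 fell. Leave-outs gave input slopes of -0.10 to 0.13 for Nfkbib and -0.15 to 0.24 for Nfkbiz, and footprint slopes of -0.048 to 0.33 for Nfkbie and -0.51 to 0.060 for Bcl3. Slopes of the ratio were called for 9 genes by DESeq2, 5 with experiment as a replicate block, 3 in experiment 1 alone, 1 with lysate as a replicate block and 0 to 6 in leave-outs. They reversed with experiment as a block (Nfkbib -0.093, Tnip1 -0.14) and in experiment 1 alone (Nfkbib -0.12, Tnip1 -0.17), and leave-outs gave -0.022 to 0.13 for Tnip1, -0.17 to 0.029 for Tnfaip3 and -0.39 to 0.082 for Bcl3. Conversion was lower in footprints for 3 members in the main fit, which called 4924 genes. It was lower for 1 member with at least 2 conversions (2290 genes, of fewer tested), where Nfkbib and Bcl3 did not enter. With a mean of at least 200 reads it was lower for 1 member (4869 genes). Bcl3 and Nfkbiz, called in the main fit, averaged 59.3 and 123 reads and did not enter there. In experiment 1 alone 0 members were lower (2021 of 7305 genes called), in experiment 2 alone 5 (5209 of 6260), and in leave-outs 0 to 4. Nfkbie and Bcl3 entered neither fit of a single experiment, and Nfkbib did not enter that of experiment 2. With a mean of at least 200 reads Nfkbiz and Tnfaip3 did not enter, which left 3 members labelled above the median in input. Tnip1 there gave -0.079 with at least 2 conversions and -0.15 to 0.33 in leave-outs, and Nfkbib in footprints 0.60 with at least 2 conversions and 0.42 after subtraction of the unlabelled share. Where a cause is not given by the construction, the cause was not tested. Depth limits Bcl3, Nfkbie and Nfkbiz most.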
